A study of Rattus norvegicus with 55 samples.

Results

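The peptidases described here are 7 enzymes that cut peptides in and around the proximal tubule, and they were read in rat kidney by 12 probe sets of the 8799 on the array, which name 4737 genes in all. Every probe set annotated to Anpep, Dpp4, Mep1a, Mep1b, Mme, Ggt1 or Prep was taken, and all 12 were bright enough to be tested, out of 6555 tested in all. Anpep had 3 probe sets, Dpp4, Mep1a and Mme had 2 each, and Mep1b, Ggt1 and Prep had 1 each. The data are 55 arrays of 1 colour, each hybridised with kidney RNA of a rat. The titles read SHR, which stands for spontaneously hypertensive rat, and the descriptions read Wistar-derived, for every array of every group. The descriptions differ only by a stage word, which gives 13 immature, 14 young and 14 mature arrays, and 14 further arrays have no stage word. Age, sex, diet and blood pressure are not given in the labels used here. The labels do not tell whether each array is a different animal, so the p-values measure only the spread between these arrays, and the number of arrays limits the precision.

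The proximal tubule takes up filtered peptides after enzymes of its brush border, the dense microvilli on the side facing the urine, have cut them into amino acids and short peptides. Aminopeptidase N (Anpep), dipeptidyl peptidase 4 (Dpp4), the meprin subunits (Mep1a and Mep1b), neprilysin (Mme) and gamma-glutamyltransferase (Ggt1) sit in that membrane with their active sites outside the cell. Prolyl endopeptidase (Prep) is the exception, a mainly cytosolic enzyme that cuts short peptides after proline.

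Several arrays stood apart before any comparison of stages. Mature arrays 1, 5, 9 and 12 had an actin 3′/5′ ratio, a common measure of RNA integrity on these arrays, of 5.08, 2.75, 5.55 and 2.82, against 0.869 to 1.94 on the other 51 arrays. Their GAPDH 3′/5′ ratios were 7.18, 1.45, 3.47 and 2.62, against 0.827 to 1.22 elsewhere. Clustering of 42 control probe sets split the arrays into 3 technical batches, a number that was set. The 13 immature arrays fell 6 in batch 1 and 7 in batch 2, the young 6 in batch 2 and 8 in batch 3, the mature 4 in batch 1 and 10 in batch 3, and those without a stage word 6 in batch 2 and 8 in batch 3. Arrays were also divided by X56596_at, a probe set of the MHC class II gene RT1-Bb, which read 1412 to 2381 on 12 arrays (3 of each stage description) and 80.1 to 263 on 43. The other RT1-Bb probe sets did not repeat that order: U65217_i_at read 0.9 to 23.7 on the 12 arrays and 174 to 877 on the 43, M36151cds_i_at read 2.1 to 5.8 and 7.1 to 1167, and M36151cds_s_at overlapped at 470 to 1586 and 275 to 1526. The division is by a measured value and not by a label, so the 12 and the 43 arrays are described without a test.

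The promoters of Anpep and Prep are shown because both genes rose over immature kidney, and that of Mep1b because its level followed the X56596_at division. Each is the 250 bases before the annotated start of the gene, from RefSeq on GRCr8, at chr1:143195102-143195351 (minus strand) for Anpep, chr20:50138338-50138587 (plus strand) for Prep and chr18:12640791-12641040 (plus strand) for Mep1b. Capitals mark GTTAAT, the core of the sequence bound by the HNF1 factors of proximal tubule cells, or its reverse complement.
Anpep: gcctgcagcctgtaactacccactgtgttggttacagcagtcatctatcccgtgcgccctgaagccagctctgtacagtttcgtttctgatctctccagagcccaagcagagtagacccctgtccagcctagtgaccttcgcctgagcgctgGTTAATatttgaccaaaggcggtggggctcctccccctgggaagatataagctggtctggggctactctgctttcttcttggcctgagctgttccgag
Prep: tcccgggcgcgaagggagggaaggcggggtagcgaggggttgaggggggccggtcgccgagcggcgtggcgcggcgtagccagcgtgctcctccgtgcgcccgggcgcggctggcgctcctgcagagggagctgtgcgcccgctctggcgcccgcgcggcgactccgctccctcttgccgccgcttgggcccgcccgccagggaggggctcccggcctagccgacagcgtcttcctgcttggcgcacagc
Mep1b: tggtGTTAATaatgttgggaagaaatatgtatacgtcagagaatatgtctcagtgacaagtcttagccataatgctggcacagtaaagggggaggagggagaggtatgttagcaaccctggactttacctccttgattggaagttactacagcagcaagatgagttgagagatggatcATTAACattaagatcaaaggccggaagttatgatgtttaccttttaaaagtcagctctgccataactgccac
GTTAAT was searched on both strands of the same window of all 7 genes, which all had an entry. Anpep held 1 match, starting 98 bases before the start of the gene. Mep1b held 2, starting 246 bases (forward) and 72 bases (reverse) before it, and Prep, Dpp4, Mep1a, Mme and Ggt1 held none. Among all 33469 promoters 6.45% held at least 1 match. The GC content was 78.0% for Prep, 55.6% for Anpep and 41.6% for Mep1b, against a median of 51.2% over all promoters. A match is a string of letters and not a measured site.

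Over immature kidney, Prep and Anpep rose in young kidney, in mature kidney and in the arrays without a stage word (for Anpep in 2 of 3 probe sets in mature kidney), and Ggt1 rose in mature kidney and in the arrays without a stage word. Dpp4, Mep1a, Mep1b and Mme passed the test in none of these 3 comparisons in the fit of all arrays without block or weights. With batch as a block Dpp4 J04591_at fell in mature kidney, and with array weights 1 probe set each of Dpp4, Mep1a, Mep1b and Mme passed in mature over immature (56.3% of all probe sets called) and 1 each of Dpp4, Mep1a and Mme in no stage word over immature (58.4% called). Tests were moderated limma tests with Benjamini-Hochberg adjustment over all 6555 probe sets and a threshold of 0.05. In mature over immature kidney 4 of the 12 probe sets rose and none fell, where 24.4% of all probe sets were called and 10.3% rose. In young over immature 4 rose and none fell (18.7% called and 9.47% higher overall), and in no stage word over immature 5 rose and none fell (27% called and 12.7% higher overall). The median log2 change of the 12 probe sets was 0.34, 0.05 and 0.41 in young, mature and no stage word over immature, against 0.04, 0.04 and 0.04 over all probe sets tested. A test for any difference among the 4 groups called 5 of 12 probe sets (28.5% called overall). The 3 comparisons share the immature arrays, so their values are not independent. In whole kidney, fewer cells of a type and less RNA per cell cannot be told apart.

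**Figure D1:**
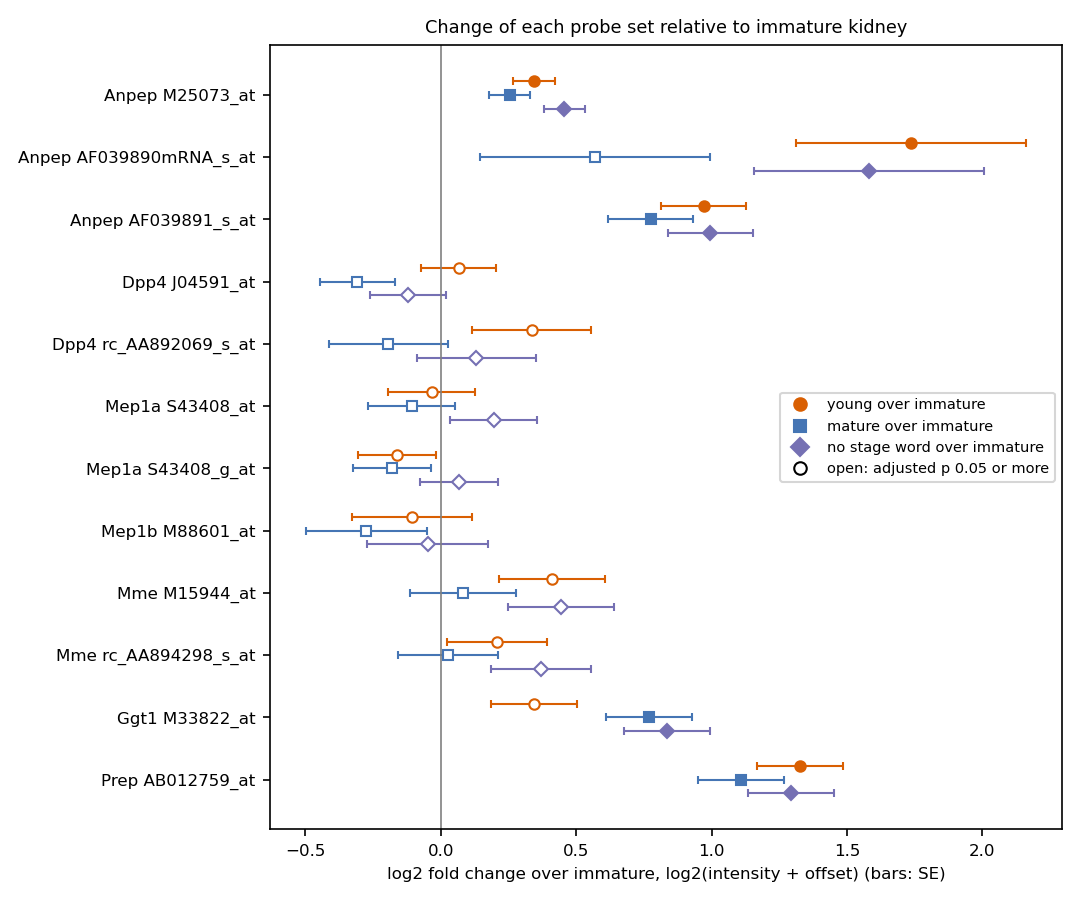
The log2 fold change of each probe set over immature kidney is plotted on the horizontal axis for young (circles), mature (squares) and no stage word (diamonds), with bars of 1 SE, filled where adjusted p was under 0.05. Prep lies at 1.11 to 1.33 and Anpep AF039890mRNA_s_at at 0.57 to 1.74, while Dpp4, Mep1a, Mep1b and Mme have open points.

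Prep had the smallest p of the 12 probe sets in each of these comparisons. Its intensity (AB012759_at) had a lowest, median and highest value of 303, 453 and 881 on immature arrays, 862, 1295 and 1361 on young, 385, 1233 and 1435 on mature, and 703, 1231 and 1512 on arrays without a stage word. Of the 14 young arrays 13 lay above every immature array, as did 10 of 14 mature arrays and 13 of 14 without a stage word. The log2 change was 1.33 in young (SE 0.16, 2.51-fold, adjusted p = 1.27e-08), 1.11 in mature (SE 0.16, adjusted p = 4.45e-07) and 1.29 in no stage word over immature (SE 0.16, 2.45-fold, adjusted p = 1.30e-08). Inside batch 2 the 6 young arrays read 1196 to 1323 and the 7 immature arrays 359 to 737, with no overlap (as for 14.7% of all probe sets) and a log2 difference of 1.27 (SE 0.18, adjusted p = 3.24e-05, with 29.3% called overall). Inside batch 1, mature over immature was 1.23 (SE 0.31) with an adjusted p of 0.096 on 4 and 6 arrays, a fit that called 0 of the 12 probe sets (4 at an unadjusted p under 0.05) and 0.717% of all. On the arrays above 600 of X56596_at mature over immature was 1.65 (SE 0.21, adjusted p = 0.00109, with 5.71% called overall), and on those below it was 0.95 (SE 0.19, adjusted p = 2.51e-04, with 28.3% called overall). Whether the stage change differs between these sides was not tested.

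Anpep rose in young kidney and in the arrays without a stage word in all 3 of its probe sets, and in mature kidney in 2 of them, by very different amounts, though with batch as a block only AF039891_s_at kept all 3 calls. M25073_at read 4144 to 6134 (median 5207) on immature arrays, 5356 to 8383 (median 7139) on young, 5359 to 7183 (median 6316) on mature and 5987 to 8393 (median 7265) without a stage word. Its log2 change was 0.34 in young (SE 0.08, adjusted p = 0.00119), 0.25 in mature (SE 0.08, adjusted p = 0.0123) and 0.46 in no stage word over immature (SE 0.08, adjusted p = 1.09e-05). Inside batch 2 it read 5356 to 5899 on the 6 young arrays and 4616 to 6004 on the 7 immature arrays, which overlapped, with a log2 difference of 0.09 (SE 0.08, adjusted p = 0.419), while no stage word over immature was 0.39 there (SE 0.08, adjusted p = 5.05e-04). With batch as a block its change in mature over immature was 0.10 (SE 0.08, adjusted p = 0.423), no longer past the threshold. AF039891_s_at read 447 to 787 (median 603) on immature arrays, 764 to 1869 (median 1250) on young, 315 to 1649 (median 1217) on mature and 818 to 1524 (median 1265) without a stage word. All 14 arrays without a stage word therefore lay above every immature array, and 1.22% of all probe sets separated these groups in 1 direction or the other. Its log2 change was 0.97 in young (SE 0.16, adjusted p = 1.12e-05), 0.78 in mature (SE 0.16, adjusted p = 2.03e-04) and 0.99 in no stage word over immature (SE 0.16, adjusted p = 3.05e-06).

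The third Anpep probe set, AF039890mRNA_s_at, moved most and was the least even among mature arrays. It read 415 to 1416 (median 798) on immature arrays, 1869 to 3404 (median 2754) on young, 47.4 to 3690 (median 2650) on mature and 1094 to 3566 (median 2472) without a stage word. All 14 young arrays lay above every immature array, and 0.87% of all probe sets separated these groups in 1 direction or the other. The log2 change was 1.74 in young (SE 0.43, adjusted p = 0.00281) and 1.58 in no stage word over immature (SE 0.43, adjusted p = 0.00395). In mature over immature it was 0.57 (SE 0.43, adjusted p = 0.332): 10 mature arrays lay above every immature array and 3 lay below all of them. Those 3 were mature arrays 1, 5 and 9, at 108, 47.4 and 52.4, and all had a high actin ratio. Without the 4 arrays of high actin ratio the change was 1.66 (SE 0.18, adjusted p = 2.67e-10). Of the 10 mature arrays left, 8 are of batch 3, which holds no immature array, and they read 2443 to 3690. Mature arrays 4 and 8, of batch 1, read 1026 and 1437 in order of size, against 1416 on the highest immature array. Stage and batch cannot be told apart for most of this change. With batch as a block AF039890mRNA_s_at lost both calls, at 1.39 in young (SE 0.49, adjusted p = 0.0645, with 8.89% of all probe sets called) and 1.23 in no stage word over immature (SE 0.49, adjusted p = 0.0683, with 20% called). Inside batch 2 AF039890mRNA_s_at was 1.76 higher in young than in immature kidney on the log2 scale (SE 0.20, adjusted p = 2.89e-06) and AF039891_s_at 0.97 (SE 0.15, adjusted p = 7.46e-05). Inside batch 1 mature over immature was -0.20 (SE 0.81) and -0.11 (SE 0.27) for these probe sets, neither past the threshold. Mature arrays 5 and 12, of high actin ratio, read 47.4 and 2009 there for AF039890mRNA_s_at, and 315 and 916 for AF039891_s_at. For AF039891_s_at mature arrays 4 and 8, of lower ratio, read 609 and 840 in order of size, against 543 to 787 on the immature arrays of batch 1. After centring each of the 55 arrays on its stage and batch, the log2 values of these 2 probe sets had a Pearson r of 0.78 (0.62 without the 4 arrays of high actin ratio). M25073_at had a centred r of -0.24 and -0.22 with them, and of 0.03 and -0.05 without the 4 arrays, all sharing the same arrays.

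**Figure D2:**
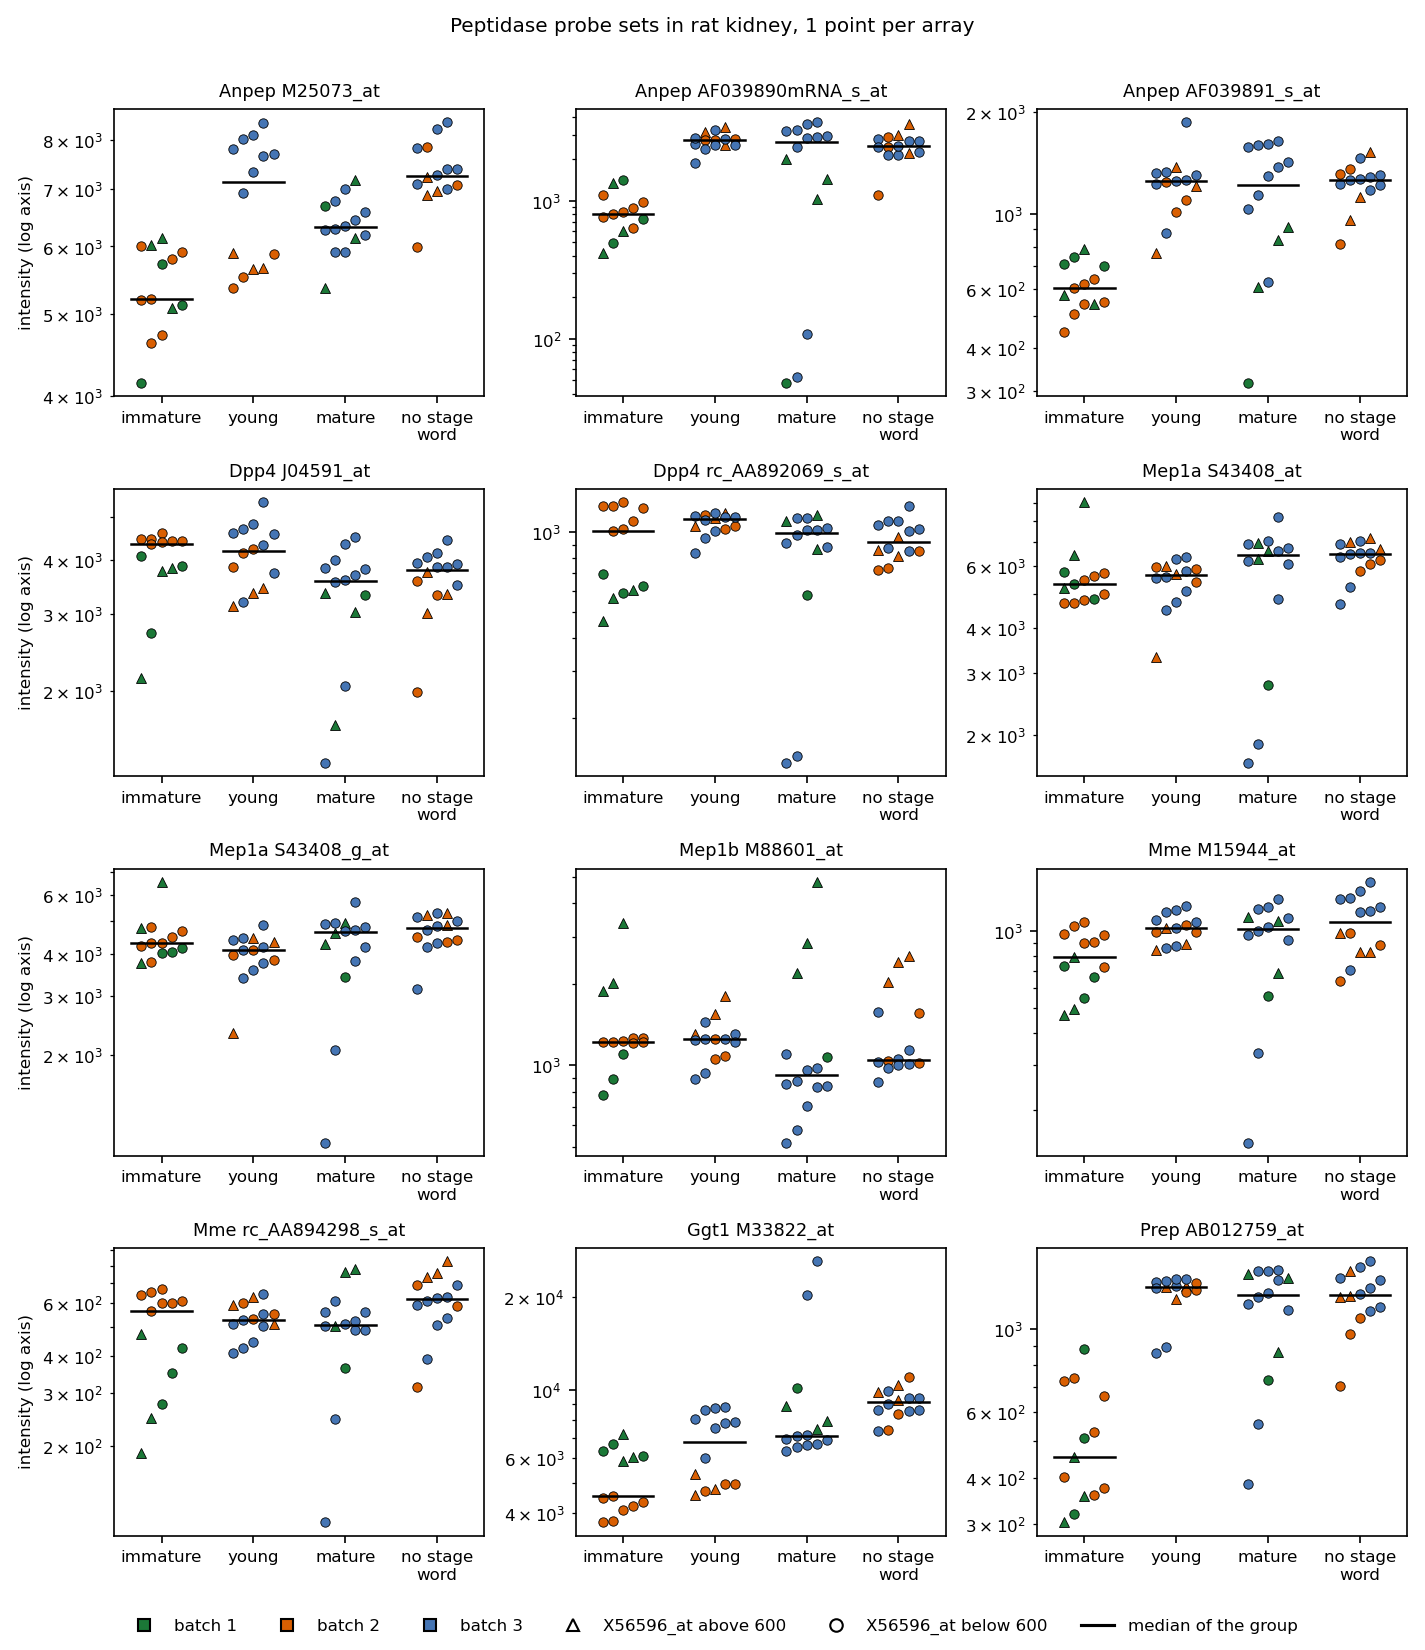
Intensity on a log axis is shown for each of the 12 probe sets by stage description, 1 point per array, coloured by batch, with triangles above and circles below 600 of X56596_at and a line at the group median. Young Prep arrays sit between 862 and 1361 against 303 to 881 in immature kidney, and 3 mature arrays of Anpep AF039890mRNA_s_at fall to 47.4 to 108.

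Ggt1, which starts the breakdown of glutathione outside the cell, was higher in mature kidney and in the arrays without a stage word than in immature kidney, with large steps between batches of 1 stage. M33822_at read 3715 to 7175 (median 4514) on immature arrays, 4564 to 8793 (median 6769) on young, 6336 to 26043 (median 7097) on mature and 7376 to 11031 (median 9108) without a stage word. All 14 arrays without a stage word lay above every immature array, and 1.22% of all probe sets separated these groups in 1 direction or the other. The log2 change was 0.34 in young (SE 0.16, adjusted p = 0.123), 0.77 in mature (SE 0.16, adjusted p = 2.71e-04) and 0.84 in no stage word over immature (SE 0.16, adjusted p = 6.95e-05). Immature arrays read 5887 to 7175 in batch 1 and 3715 to 4514 in batch 2, and young arrays read 4564 to 5320 in batch 2 and 6010 to 8793 in batch 3, so neither of these stages overlapped between its batches. Inside batch 1 the 4 mature arrays read 7432 to 10139 and the 6 immature arrays 5887 to 7175, without overlap (4.94% of all probe sets did not overlap there), and the log2 difference of 0.42 (SE 0.15) had an adjusted p of 0.235. Inside batch 2 young over immature was 0.23 (SE 0.09, adjusted p = 0.0499), and the arrays of the groups again did not overlap. There 29.3% of all probe sets were called and 14.7% did not overlap. With the 4 arrays of high actin ratio left out, mature over immature fell to 0.48 (SE 0.12, adjusted p = 0.00178).

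Ggt1 also differed between the arrays without a stage word and the young arrays, past the threshold in batch 2 alone of the 2 batches that hold both. In batch 2 the arrays without a stage word read 7398 to 11031 (median 9550), and the young arrays 4564 to 5320 (median 4850), 6 each and not overlapping. The log2 difference was 0.93 (SE 0.09, adjusted p = 8.15e-07). In batch 3 the 8 arrays without a stage word read 7376 to 9883 (median 8789), the 8 young arrays read 6010 to 8793 (median 7922), and the difference was 0.16 (SE 0.23, adjusted p = 0.9999), in a fit that called 0% of all probe sets. Anpep M25073_at followed, at 5987 to 7848 without a stage word and 5356 to 5899 in young arrays of batch 2 (log2 difference 0.30, SE 0.08, adjusted p = 0.00969), and 7000 to 8393 and 6942 to 8383 in batch 3 (-0.03, SE 0.09). Dpp4 rc_AA892069_s_at went the other way in batch 2, at 724 to 961 without a stage word and 1027 to 1184 in young arrays (-0.42, SE 0.09, adjusted p = 0.00132). These 3 probe sets did not overlap in batch 2, where 13.1% of all probe sets did not and 27.1% were called. A test of the difference between the 2 batches gave 0.76 for Ggt1 (SE 0.14, adjusted p = 8.69e-04) and 0.33 for Anpep M25073_at (SE 0.10, adjusted p = 0.046), with 7.08% of all probe sets called. For Dpp4 rc_AA892069_s_at it gave -0.38 (SE 0.14, adjusted p = 0.0881). Over all arrays, no stage word over young called 0 of the 12 probe sets in limma (0.229% called overall), and 1, Ggt1, had an unadjusted p under 0.05 (log2 difference 0.49, adjusted p = 0.257).

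**Figure D3:**
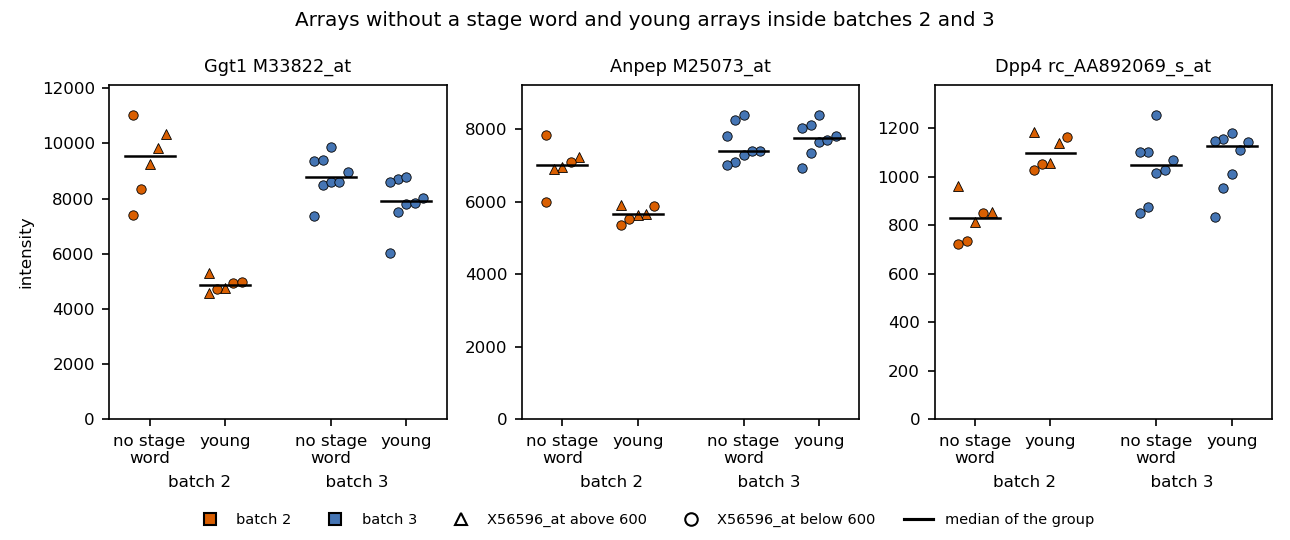
Intensity, on an axis from 0, is plotted for Ggt1, Anpep M25073_at and Dpp4 rc_AA892069_s_at on arrays without a stage word (left) and young arrays (right) of batches 2 and 3, 1 point per array with the group median. Ggt1 reads 7398 to 11031 and 4564 to 5320 in batch 2, and the groups overlap in batch 3.

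Dpp4, which removes dipeptides from peptides with proline or alanine next to the end, passed no comparison of stages in the fit of all arrays without block or weights. J04591_at read 2137 to 4601 (median 4332) on immature arrays, 3124 to 5420 (median 4184) on young, 1366 to 4502 (median 3574) on mature and 1989 to 4443 (median 3795) without a stage word. Its log2 change in mature over immature was -0.31 (SE 0.14, adjusted p = 0.0959). With batch as a block it was -0.51 (SE 0.15, adjusted p = 0.0176, with 12.6% called overall), and without immature array 2 it was -0.38 (adjusted p = 0.0331). In batch 2 it read 4332 to 4601 on the 7 immature arrays, and the 6 arrays without a stage word (1989 to 3741) and the 6 young arrays (3124 to 4219) lay below all of them. No stage word over immature was -0.51 there (SE 0.12, adjusted p = 0.00143), where 43.4% of all probe sets were called and 20.9% did not overlap. Between young and immature arrays of batch 2, 14.7% of all probe sets did not overlap. The second probe set, rc_AA892069_s_at, read 463 to 1303 (median 1015) on immature arrays, 834 to 1184 (median 1124) on young, 135 to 1168 (median 999) on mature and 724 to 1255 (median 919) without a stage word. Its immature arrays read 463 to 694 in batch 1 and 1015 to 1303 in batch 2. Its log2 change in no stage word over immature inside batch 2 was -0.50 (SE 0.08, adjusted p = 6.54e-05). On the arrays above 600, whose immature and mature members are all of batch 1, mature over immature was instead 0.92 (SE 0.17, adjusted p = 0.00888). In that fit 5.71% of all probe sets were called. After centring each array on its stage and batch, the 2 probe sets had r = 0.64 over 55 arrays and 0.13 without the 4 arrays of high actin ratio.

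The meprins are metalloproteases built from an alpha subunit (Mep1a) and a beta subunit (Mep1b), abundant in rodent proximal tubule. Mep1a did not pass in any comparison of stages in the fit of all arrays without block or weights. S43408_at read 4711 to 9073 (median 5348) on immature arrays, 3320.0 to 6354 (median 5640) on young, 1671 to 8209 (median 6429) on mature and 4699 to 7165 (median 6490) without a stage word. Its log2 change in mature over immature was -0.11 (SE 0.16, adjusted p = 0.648), and 0.25 (SE 0.10, adjusted p = 0.0511) without the 4 arrays of high actin ratio. With array weights it was 0.29 (SE 0.09, adjusted p = 0.00459). S43408_g_at, from the same database sequence, had r = 0.92 with it after centring on stage and batch and changed by -0.18 (SE 0.14, adjusted p = 0.366). Inside batch 2 S43408_at read 5797 to 7165 on 6 arrays without a stage word and 4711 to 5735 on 7 immature arrays. These groups did not overlap, as for 20.9% of all probe sets. For S43408_g_at they overlapped, at 4355 to 5311 and 3789 to 4797.

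Mep1b did not differ past the threshold between stages in the fit of all arrays without block or weights, and was higher on the 12 arrays above 600 of X56596_at than on the 43 below. In immature kidney the 3 arrays above 600 read 1885, 2015 and 3369, against 775 to 1268 (median 1219) on the 10 below. In mature kidney they read 2209, 2852 and 4803, against 516 to 1099 (median 850) on the 11 below. Without a stage word they read 2031, 2426 and 2538, against 868 to 1575 (median 1032) on the 11 below. The sides did not overlap in any of these 3 groups, where 1.19%, 2.87% and 2.79% of all probe sets lay wholly higher above 600. In young kidney the arrays above 600 read 1312, 1553 and 1803, against 893 to 1449 (median 1237) on the 11 below, and the lowest of the 3 lay within the range below 600 (3.37% of all probe sets lay wholly higher there). Separation in at least 3 of the 4 groups with the arrays above 600 higher was seen for 36 of 6555 probe sets (0.549%). Within each of the 4 combinations of stage and batch that hold both sides Mep1b was higher above 600 without overlap, as were 46 probe sets (0.702%). In batch 1 these were 1885 to 3369 and 775 to 1104 for immature kidney, and 2209 to 4803 and 1077 (1 array) for mature kidney. That 1 array was mature array 5, and the value of 2209 was that of mature array 12, both of high actin ratio (2.75 and 2.82). In batch 2 the values were 1312 to 1803 and 1054 to 1254 for young kidney, and 2031 to 2538 and 1018 to 1561 without a stage word. Both Mep1a probe sets, Mme rc_AA894298_s_at and Prep each separated in 2 of these 4 combinations with the arrays above 600 higher, and the remaining peptidase probe sets in fewer. The share of all probe sets that separated in 2 was not counted. Batch 3 has no array above 600.

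**Figure D4:**
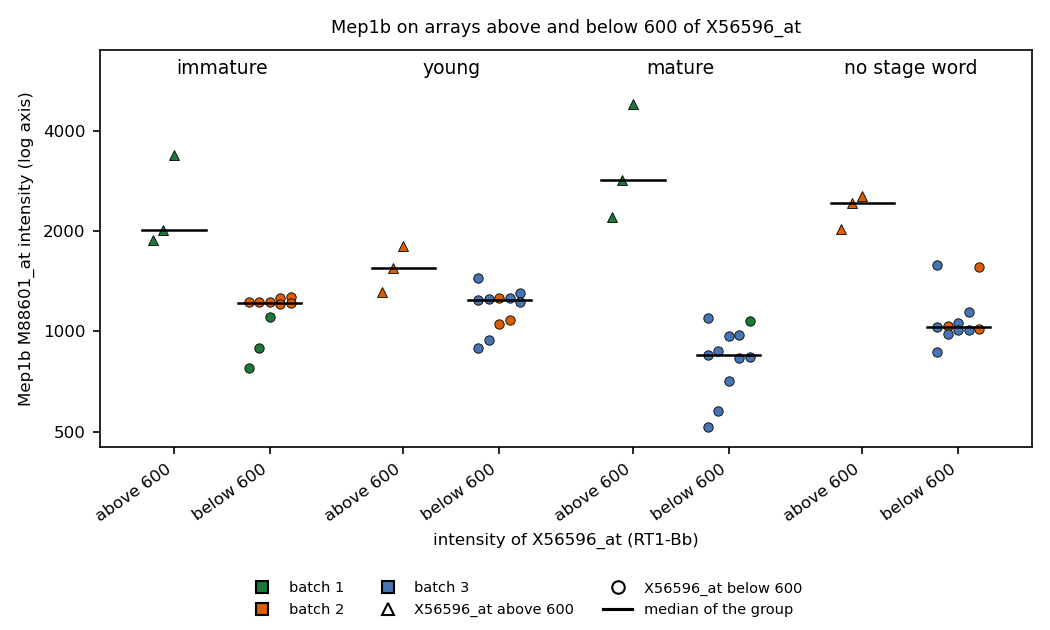
Mep1b intensity on a log axis is plotted for the arrays above 600 (left, triangles) and below 600 (right, circles) of X56596_at in each stage description, coloured by batch, with a line at the median. The arrays above 600 read 1312 to 4803 and those below 516 to 1575, and the sides overlap only in young kidney.

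Other markers moved with these sides in places. The summed intensity of 7 immune marker genes (Ptprc, Cd4, Cd74, RT1-Da, Lyz2, Ccl2 and Cd14, with none at 0 on any array) was 10122 to 12544 above 600 and 9345 to 14026 below in immature kidney, 7407 to 9693 and 9374 to 14019 in young, 9025 to 10840 and 11753 to 25321 in mature, and 10437 to 12061 and 12103 to 16661 without a stage word. The summed intensity of 16 proximal tubule markers was 64375 to 90043 above 600 and 57179 to 89890.0 below in immature kidney, 82854 to 85457 and 81454 to 110391 in young, 59175 to 73106 and 69950.0 to 118768 in mature, and 87541 to 92261 and 81611 to 109888 without a stage word. The 3 arrays above 600 are of batch 1 in immature and mature kidney, and of batch 2 in young kidney and without a stage word. Below 600, 7 of 10 immature arrays are of batch 2. Of batch 3 are 8 of 11 young, 10 of 11 mature and 8 of 11 arrays without a stage word. Side and batch therefore cannot be told apart in these sums. The part of these markers in the Mep1b levels was not tested. Between stages, Mep1b was -0.27 in mature over immature (SE 0.22, adjusted p = 0.377) over all arrays, and -0.40 with array weights (SE 0.16, adjusted p = 0.0328). On the arrays below 600 alone it fell in mature over immature by 0.44 (SE 0.12, adjusted p = 0.00714, with 28.3% of probe sets called) and in mature over young by 0.49 (SE 0.12, adjusted p = 0.032, with 0.732% called). Most of the arrays below 600 differ in batch as well, since 10 of the 11 mature ones are of batch 3 and none of the immature ones is.

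Mme, which encodes neprilysin, a broad peptidase that inactivates natriuretic peptides and enkephalins, did not pass in the stage comparisons in the fit of all arrays without block or weights. M15944_at read 470 to 1087 (median 791) on immature arrays, 845 to 1259 (median 1031) on young, 149 to 1339 (median 1018) on mature and 639 to 1563 (median 1089) without a stage word. Its log2 change was 0.41 in young (SE 0.20, adjusted p = 0.136), 0.08 in mature (SE 0.20, adjusted p = 0.791) and 0.44 in no stage word over immature (SE 0.20, adjusted p = 0.0861). Mature array 1 decided 2 of these calls: without it young and no stage word over immature were past the threshold (adjusted p = 0.0468 and 0.0235). Without the 4 arrays of high actin ratio, mature over immature was 0.44 (SE 0.14, adjusted p = 0.0112). rc_AA894298_s_at read 190 to 671 (median 565) on immature arrays, 410 to 642 (median 528) on young, 111 to 782 (median 506) on mature and 315 to 826 (median 617) without a stage word, and its immature arrays read 190 to 473 in batch 1 and 565 to 671 in batch 2. Without a stage word its 3 arrays above 600 read 730.0, 755 and 826, against 315 to 689 on the 11 below, a separation that 2.79% of all probe sets also showed. In the other 3 groups the sides overlapped, at 190 to 473 above 600 and 277 to 671 below in immature kidney, 509 to 627 and 410 to 642 in young, and 503 to 782 and 111 to 609 in mature.

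Mature arrays 1, 5 and 9, of high actin ratio, were low for most of these peptidases and high for Ggt1, and mature array 12 was not. Mature array 1 lay below all 10 mature arrays of lower ratio for 9 of 12 probe sets, array 5 for 8, array 9 for 7 and array 12 for 1. The share of all probe sets was not counted for single arrays, only for arrays 1 and 9 together. Arrays 1 and 9 both lay below the 10 others for 7 probe sets, which 19.4% of all probe sets did. For Mep1a S43408_at they read 1671 and 1891, against 4832 to 8209 on the 10 others. For Dpp4 rc_AA892069_s_at they read 135 and 143, against 866 to 1135, and for Prep 385 and 556, against 866 to 1435. Ggt1 ran the other way at 26043 and 20298, against 6336 to 8827 on the 10 others (7432 on array 12), and 21.7% of all probe sets had both arrays above. Anpep M25073_at read 7011 and 6788, within the 5908 to 7183 of the 10 others. These 2 arrays had summed immune markers of 25321 and 24710, and summed proximal tubule markers of 106295 and 69950.0. The part of RNA integrity or of these cells in the peptidase values was not tested.

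**Figure D5:**
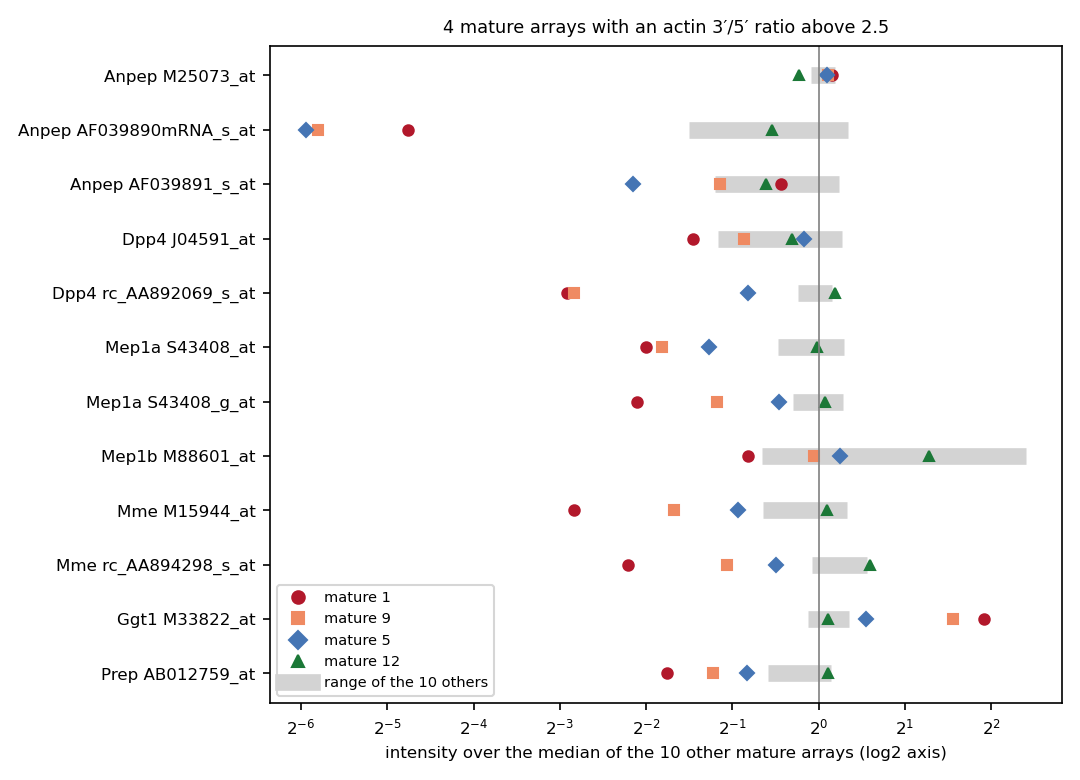
For each probe set the 4 mature arrays with an actin 3′/5′ ratio above 2.5 are plotted as intensity divided by the median of the 10 other mature arrays, on a log2 axis, with a grey bar for the range of those 10. Arrays 1 and 9 lie left of the bar for 7 of 12 probe sets and right of it for Ggt1.

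Without these 4 arrays mature over immature called 6 of the 12 probe sets, all higher (30.4% of all probe sets called): Prep at 1.35, the 3 Anpep probe sets at 1.66, 1.04 and 0.25, Ggt1 at 0.48 and Mme M15944_at at 0.44. The arrays also set the spread used in the other comparisons. Young over immature and no stage word over immature then called 7 probe sets each, all higher (27.1% and 34.7% called overall). Of the 10 mature arrays left, 8 are of batch 3, which holds no immature array. With batch as a block as well, mature over immature called 5 of the 12, 4 higher and 1 lower (1435 of all 6555 probe sets called).

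Between mature kidney and young kidney or the arrays without a stage word, none of the 12 probe sets passed the limma test in the fit of all arrays without block or weights. In mature over young 0 were called (1.8% called overall) and 4 had an unadjusted p under 0.05: Anpep AF039890mRNA_s_at at -1.17 (SE 0.42), Dpp4 J04591_at at -0.37 (SE 0.14), Dpp4 rc_AA892069_s_at at -0.53 (SE 0.22) and Ggt1 at 0.43 (SE 0.16) on the log2 scale. In mature over no stage word 0 were called (0.412% called overall) and 2 had an unadjusted p under 0.05, both of Anpep: AF039890mRNA_s_at at -1.01 (SE 0.42) and M25073_at at -0.20 (SE 0.08). With batch as a block M25073_at passed, at -0.27 (SE 0.07, adjusted p = 0.0191, with 5.26% called overall). Inside batch 3 without mature arrays 1 and 9, Anpep M25073_at was lower in mature than in young kidney (-0.31, SE 0.07, adjusted p = 0.00947, with 1.6% called overall). There it was also lower in mature kidney than without a stage word (-0.28, SE 0.07, adjusted p = 0.0206), and so was Ggt1 (-0.38, SE 0.08, adjusted p = 0.0116), with 3.33% called overall.

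Other genes of peptide handling moved both ways between mature and immature kidney, a comparison in which 24.4% of all probe sets were called and 10.3% rose. Of 10 tested genes for other membrane peptidases 1 rose, Ace (log2 change 0.86, SE 0.16), the angiotensin converting enzyme, and 2 fell, the dipeptidase Dpep1 by 0.62 (SE 0.23) and the folate hydrolase Folh1 by 0.44 (SE 0.15). Of 18 cytosolic, lysosomal and secreted peptidases 3 rose, the cathepsins Ctsb (0.80, SE 0.12) and Ctsd (0.59, SE 0.13) and the oligopeptidase Thop1 (0.53, SE 0.11), and 3 fell, Tpp2, Ctsc and Ctsl (by 0.75, 0.75 and 0.49). The peptide transporter Slc15a1 was the sole gene past the threshold of 8 for peptide and amino acid uptake (0.81, SE 0.16). Of 5 genes for glutathione synthesis and turnover the 5-oxoprolinase Oplah alone passed (0.39, SE 0.11), and 2 of the 5 rose with batch as a block. Of 9 other brush border genes the scaffold Pdzk1 rose (0.48, SE 0.12), and the sodium-proton exchanger Slc9a3 and the glucose transporter Slc5a2 fell (by 0.84 and 0.30). With batch as a block Dpep1, Folh1, Tpp2, Ctsd, Ctsl, Ctsc, Slc9a3 and Slc5a2 were no longer past the threshold.

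Markers of tubule and stroma moved with the stage too, those of the tubule both ways within a list in the fit without block. In mature over immature kidney 24.4% of all probe sets were called and 10.3% rose. Of 10 distal nephron and collecting duct markers 1 rose and 5 fell, with a median of -0.44 over the list (0 rose and 5 fell with batch as a block). Of 6 thick ascending limb markers 1 rose and 1 fell (0 rose and 1 fell with batch as a block). Of 16 proximal tubule markers 4 rose in mature over immature kidney (Slc22a6, Slc13a3, Dao and Hnf4a, by log2 0.66, 0.71, 0.46 and 0.80) and 2 fell (Slc5a2 and Slc9a3), with a median of 0.25 over the list. With batch as a block 3 of the 16 rose and 0 fell. The summed intensity of the 16, with none at 0, was 57179 to 90043 (median 80297) on immature arrays, 81454 to 110391 (median 97974) on young, 59175 to 118768 (median 104308) on mature and 81611 to 109888 (median 97016) without a stage word. All 5 fibroblast and matrix markers (Col1a1, Col1a2, Col3a1, Dcn and Fn1) fell, by 1.11 to 2.39 on the log2 scale, and their sum was 8971 to 14568 on immature arrays, 4158 to 6211 on young, 2153 to 6224 on mature and 2158 to 4625 without a stage word. Their part in the rise of Prep, Anpep and Ggt1 was not tested.

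The genes whose log2 values ran most like each peptidase over the 55 arrays are given as a description, taking the brightest probe set of a gene and giving Pearson r. For Prep they were Gsta1 (r = 0.84) and Cyp2c11 (0.83), which after centring each array on its stage and batch had r = 0.66 and 0.57. For Anpep M25073_at they were Mettl7b (0.76, centred 0.45) and Espn (0.75, centred 0.45), and for Mep1b Hsd17b10 (0.71, centred 0.46) and Cyfip2 (0.71, centred 0.52). For Ggt1 they were Akr7a2 (0.85, centred 0.90) and Map1lc3a (0.85, centred 0.88), for Mme Me1 (0.85, centred 0.83) and Gclc (0.85, centred 0.87), and for Dpp4 J04591_at Top1 (0.82, centred 0.84) and Alg10 (0.81, centred 0.82). For Mep1a S43408_at they were Ppp2r1a (0.83) and Arf1 (0.80), and without the 4 arrays of high actin ratio r was 0.38 and 0.07. The points share arrays, batches and RNA integrity.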

How the data were processed

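The deposited values are intensities of 8799 probe sets on each of 55 arrays of 1 colour, scaled by the authors to a 2% trimmed mean of about 500 (500.2 to 500.7), as the values show. The summarising software is not given in the sources used here. An offset of 15.82 (0.1 of the median) was added before log2, so changes of dim probe sets are understated. Probe sets below the 25th percentile of mean log2 and 59 controls were left out, which kept 6555. Signal over background was not analysed.

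All arrays entered 1 limma 3.58.1 fit (R 4.3.3; lmFit, eBayes, no covariate), checked on simulated data. Batches came from Ward clustering of control probe sets. Alternatives were batch and X56596_at side as blocks or separate fits, arrays of high 3′/5′ ratio left out, scaling, offset, filter, weights, prior and each array left out. All probe sets of the 7 genes were named, with the 2 most correlated genes of each, and list members past the threshold. Members and lists were chosen with earlier results of these data known. RefSeq GRCr8 gave current symbols and promoters.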

Additional observations from a re-analysis of the deposited data

Results flagged for a closer look

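The difference between arrays without a stage word and young arrays was not the same in batch 2 as in batch 3 for 2 peptidase probe sets, by an interaction term in limma. The difference in batch 2 minus that in batch 3 was 0.765 on the log2 scale for Ggt1 (M33822_at, SE 0.14, adjusted p = 8.69e-04) and 0.334 for Anpep (M25073_at, SE 0.10, adjusted p = 0.046). All 6 arrays without a stage word lay above all 6 young arrays in batch 2 for both probe sets, and the groups overlapped in batch 3. The same test called 464 of 6555 probe sets, 7.08%.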

How the results depend on the processing

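Quantile normalization, median centring, a larger offset, no filter on low values and a trended robust prior left every count of the 12 probe sets called within 1.5 times, and Mep1b separated the X56596_at sides in 3 of 4 groups under both other scalings. Counts of the 12 probe sets called are given here with the number called of all 6555 in brackets. In mature over immature kidney they were 4 with all arrays (1599), 0 inside batch 1 (47), 9 with array weights (3691) and 2 with batch and side as blocks (651). In young over immature 4 were called with all arrays (1225) and 2 with batch and side as blocks (360). Without the arrays of high GAPDH ratio 7 were called (1662), and 7 without those of high actin ratio (1779). In no stage word over immature they were 5 with all arrays (1773), 8 inside batch 2 (2848) and 8 with array weights (3831). In mature over young 0 were called with all arrays (118), 1 inside the arrays above 600 (482) and 1 inside those below (48). Inside batch 3 without high actin ratios 1 was called (105). In mature over no stage word 0 were called with all arrays (27), 1 with the batch block (345) and 1 with batch and side (348). With the batch block 2 were called without high GAPDH ratios (851) and 2 without high actin ratios (794). A further fit, inside batch 3 without high actin ratios, called 2 (218). In no stage word over young 0 were called with all arrays (15) and 3 inside batch 2 (1778). Each of 6 other settings called 1: inside above 600 (79), array weights (372), and without high GAPDH ratios, alone (33) or with the batch block (251). The rest of the 6 were without high actin ratios, alone (50) or with the batch block (337). The test over the 4 groups called 8 with array weights (3984) and 5 without (1867). Leaving out 1 array at a time gave 4 to 5, 4 to 5 and 5 to 6 calls for mature, young and no stage word over immature, 0 in the other 3 comparisons, and 5 over the 4 groups.

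Among values past the threshold with all arrays or under the alternative, signs turned for Anpep AF039891_s_at in mature over immature inside batch 1 (-0.11), Dpp4 rc_AA892069_s_at in no stage word over immature inside batch 2 (-0.50) and in mature over immature above 600 (0.92), Mep1a S43408_at in mature over immature with array weights (0.29), and Dpp4 J04591_at in young over immature with the batch block and without high actin ratios (-0.30). Mep1b in no stage word over immature turned to 0.52 and 0.60 with the batch block without high GAPDH and without high actin ratios. Signs of values past it in neither, such as Anpep AF039890mRNA_s_at inside batch 1, are not listed. The cause was not tested, though fits inside a batch or side hold fewer arrays. The exclusions by actin ratio, the joint block, the batch interaction and the Mep1b scalings were chosen after seeing the data. No paired analysis was possible because the labels give no replicate number that groups share.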
